A study of Mus musculus with 2 samples.

Results

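A set of 10 genes of glucose uptake and glycolysis was followed in splenic helper (CD4+) T lymphocytes of the mouse after stimulation through the antigen receptor. The set was chosen by gene symbol, with earlier results of these data known. It held the glucose transporters Slc2a1 and Slc2a3, the hexokinases Hk1 and Hk2, the isomerase Gpi1 and the phosphofructokinases Pfkl and Pfkp. It also held the aldolase Aldoa, the pyruvate kinase Pkm and the lactate dehydrogenase Ldha. The 10 genes were taken from 9656 genes for which splice junctions could be named. Of these 9656, 7130 had at least 20 junction reads over both libraries, and all 10 genes of the set passed that minimum. The stimulated cells spent 4 h on plates coated with anti-CD3e, which engages the antigen receptor, and anti-CD28, which gives the costimulatory signal, at 2 ug/ml each. The mock cells were handled identically without either antibody. All cells were enriched magnetically from spleens of male C57BL/6JJcl mice, 4 spleens being pooled, with no genetic change named in either group. The labels do not say whether 1 pool of cells served both groups.

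Resting T cells burn little glucose. On activation they take up glucose through facilitated transporters, phosphorylate it with hexokinase so that it stays in the cell, split the 6-carbon sugar with phosphofructokinase and aldolase, and turn much of the resulting pyruvate into lactate, a habit known as aerobic glycolysis. Several steps can be made by more than 1 gene, and Pkm makes 2 enzymes from 1 gene by a choice between exon 9 (the PKM1 form, typical of muscle and brain) and exon 10 (the PKM2 form, typical of dividing cells).

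The measurement was the number of sequenced reads that crossed each splice junction. 1 library was sequenced per group, with 1341197 junction reads in the stimulated and 1147232 in the mock library, so no difference has a replicate check and no p-value is given. Levels are reads per 1000000 junction reads of the library (JPM), and ratios are stimulated over mock. Brackets hold exact (Clopper-Pearson) 95% intervals, which cover counting error only and no spread between libraries. Reads are not independent molecules, so the intervals can be too narrow even for counting error. A gene is called higher where it had at least 20 reads, a ratio of at least 2 and an interval that excluded 1, and lower where the ratio was at most 0.5 under the same conditions. A level depends on how many junctions of a gene were found, so levels are compared between libraries and not between genes. In RNA from bulk cells, more cells of a type and more RNA per cell cannot be told apart.

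The alternative exons of Pkm are printed here because the junctions that enter them separate the 2 enzyme forms. Capitals mark the positions at which the exons differ.

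Pkm exon 9: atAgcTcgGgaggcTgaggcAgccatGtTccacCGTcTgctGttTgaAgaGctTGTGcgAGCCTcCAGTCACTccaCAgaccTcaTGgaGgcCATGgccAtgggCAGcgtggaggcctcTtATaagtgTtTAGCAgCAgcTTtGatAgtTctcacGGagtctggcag
Pkm exon 10: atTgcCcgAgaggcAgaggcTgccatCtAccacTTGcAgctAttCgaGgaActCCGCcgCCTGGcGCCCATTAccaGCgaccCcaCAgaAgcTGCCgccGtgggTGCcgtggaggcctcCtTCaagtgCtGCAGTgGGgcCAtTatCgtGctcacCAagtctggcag

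Both are coding exons of 167 bases, read from GENCODE M21 transcripts. They hold the same base at 103 positions and differ at 64, an identity of 61.7%. With starts from the junctions of the files and ends from the annotated length, exon 9 lies at chr9:59522836-59523002 and exon 10 at chr9:59523375-59523541 of the mm9 build, both on the plus strand. A read that crosses from exon 8 shows which exon was used within a few bases of the join. In the next pair, the last 20 bases of exon 8 are in lower case and the first 20 bases of the following exon in capitals.

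Pkm exon 8 to exon 9: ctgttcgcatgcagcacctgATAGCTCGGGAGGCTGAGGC
Pkm exon 8 to exon 10: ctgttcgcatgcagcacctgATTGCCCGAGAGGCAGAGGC

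Of the 10 genes, 5 were higher in the stimulated library (Slc2a1, Hk2, Pfkp, Pkm and Ldha), none was lower, and 5 met neither condition (Slc2a3, Hk1, Gpi1, Pfkl and Aldoa). Over all 7130 measured genes 17.0% were higher and 25.1% lower. The set was chosen with earlier results of these data known, so this contrast does not measure how unusual it is. The median ratio of the 10 genes was 2.14 (log2 1.10), and that of all measured genes with reads in both libraries was 0.859 (log2 −0.22). Together the 10 genes held 4180 stimulated reads (3117 JPM) and 1889 mock reads (1647 JPM), on 128 named junctions. The genes that were higher included 1 transporter, 1 of the hexokinases, 1 of the phosphofructokinases and both enzymes of the set that handle pyruvate.

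**Figure D1:**
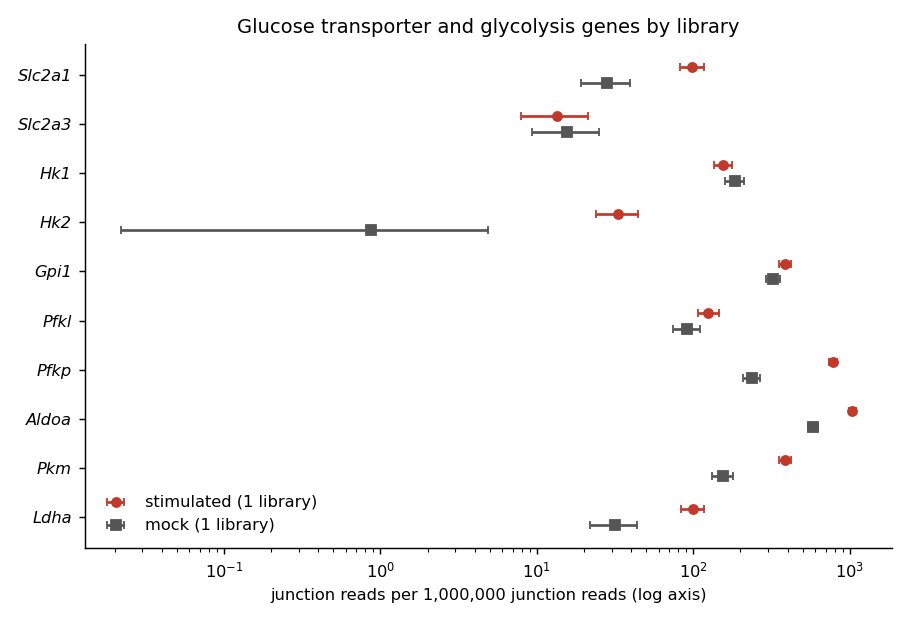
Junction reads per 1000000 junction reads (log axis) for the 10 genes; red circles are the stimulated library and grey squares the mock library, with exact 95% counting intervals. Hk2 had 1 mock read, which gives its wide interval, and Slc2a3 and Hk1 had slightly lower stimulated than mock levels.

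The plot of levels by library shows the widest gap for Hk2 and the least for Slc2a3. Among the transporters, Slc2a1, which encodes GLUT1, the main glucose transporter of activated T cells, was higher. It had 132 stimulated reads (98.4 JPM, 82.3 to 117) against 32 mock reads (27.9 JPM, 19.1 to 39.4), a ratio of 3.53 (2.38 to 5.37). Its 10 named junctions lie at chr4:118781578-118808850 (mm9, plus strand) and include all 9 introns of its most-read coding transcript. In each of the 6 later introns with reads in both libraries the ratio was above 1, between 2.14 and 8.55. Intron 3 had no stimulated read and 1 mock read. Slc2a3, which encodes the high-affinity transporter GLUT3, had 18 reads in each library, at 13.4 JPM (7.95 to 21.2) in the stimulated and 15.7 JPM (9.30 to 24.8) in the mock library. Its ratio of 0.855 (0.420 to 1.74) met neither condition, with 36 reads in all behind it. Its junctions lie at chr6:122680159-122689850 on the minus strand, and its first 2 introns had no read.

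Hexokinase traps glucose as glucose 6-phosphate. Hk2, the inducible isozyme, had 44 stimulated reads (32.8 JPM, 23.8 to 44.0) against 1 mock read (0.872 JPM, 0.0221 to 4.86). The ratio of 37.6 rests on that single read and has an interval of 6.41 to 1520. Stimulated reads lay on 13 of 17 introns, between 1 and 6 per intron, at chr6:82677449-82723911 (minus strand), and 12 of those introns had no mock read. Hk1, the isozyme found in most cells, had 208 stimulated reads (155 JPM, 135 to 178) against 211 mock reads (184 JPM, 160 to 210). At 0.843 (0.693 to 1.03) it met neither condition, with reads on all 17 introns at chr10:61732805-61802760 (minus strand). The 2 hexokinase intervals do not overlap. Along Hk1 the ratio was below 1 in 12 of the 15 later introns read in both libraries. Introns 1 to 4 all lay above 1, with 6 and 4, 11 and 0, 12 and 4, and 14 and 8 stimulated and mock reads. The intervals of introns 1, 3 and 4 included 1, and that of intron 2 did not. From intron 5 on, only intron 11 was above 1, with 12 and 10 reads. The gene-level ratio of Hk1 joins introns with ratios above and below 1. The variance between its junctions was 1.52 times the counting variance, against 2.01 over 4848 genes.

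Gpi1 turns glucose 6-phosphate into fructose 6-phosphate, and phosphofructokinase then commits the sugar to glycolysis. Gpi1 had 520 stimulated reads (388 JPM) against 370 mock reads (323 JPM), a ratio of 1.20 (1.05 to 1.38). Its junctions, at chr7:34990955-35015110 (minus strand), did not share a direction. Intron 1 had 257 stimulated and 71 mock reads, a ratio of 3.10 (2.37 to 4.09), whereas intron 5 had 124 and 142 (0.747, 0.582 to 0.957) and intron 6 had 89 and 114 (0.668, 0.50 to 0.889). All introns after the first gave 0.752 (0.635 to 0.891). The variance between the Gpi1 junctions was 22.2 times the counting variance, the most of the 7 genes of the set that could be assessed and against 2.01 over 4848 genes, and its gene-level ratio joins junctions of both directions.

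Pfkp, the platelet-type phosphofructokinase subunit, was higher. It had 1051 stimulated reads (784 JPM, 737 to 832) against 271 mock reads (236 JPM, 209 to 266), a ratio of 3.32 (2.90 to 3.81), at chr13:6580839-6647816 (minus strand). Reads were found on all 21 introns, and each of the 20 later introns had a ratio above 1, between 1.40 and 4.49. Intron 1 stood apart with 383 stimulated and 25 mock reads, a ratio of 13.1 (8.74 to 20.5). The later introns together gave 2.31 (1.99 to 2.69). Pfkl, the liver-type subunit, had 167 stimulated reads (125 JPM) against 104 mock reads (90.7 JPM), a ratio of 1.37 (1.07 to 1.77) that met neither condition, at chr10:77451103-77472343 (minus strand). Its intron 1 had 39 stimulated and 8 mock reads (4.17, 1.92 to 10.3), and its later introns together gave 1.17 (0.888 to 1.55). The intervals of Pfkp and Pfkl do not overlap. The muscle-type subunit Pfkm, which was no member of the set, had 4 stimulated and 21 mock reads and was 6.14-fold lower (2.07 to 24.6).

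Aldoa cleaves fructose 1,6-bisphosphate into 2 triose phosphates. It had 1389 stimulated reads (1036 JPM, 982 to 1092) against 669 mock reads (583 JPM, 540 to 629). The ratio of 1.78 (1.62 to 1.95) excluded 1 but fell under the limit of 2. All 7 later introns of its most-read transcript had ratios above 1, between 1.20 and 2.43, at chr7:133939029-133943515 (minus strand). Aldoa also had the most reads on alternative junctions, 74 stimulated and 10 mock reads on 3 junctions near its 5′ end. Into the acceptor at position 133941291, 3 donors were spliced. The main donor, at 133942558, held 177 of 228 stimulated reads (77.6%, 71.7 to 82.9) against 36 of 41 mock reads (87.8%, 73.8 to 95.9). The nearest donor, at 133941487, held 43 reads (18.9%, 14.0 to 24.6) against 5 (12.2%, 4.08 to 26.2). The farthest, at 133943515, held 8 reads (3.51%, 1.53 to 6.80) against 0, which allows up to 8.60% of the mock reads by the exact interval. The intervals of each share overlap, so no difference in the use of these donors was detectable at this depth. The main donor itself was also joined to an acceptor at 133941641, in 23 of its 200 stimulated reads (11.5%, 7.43 to 16.8) and 5 of its 41 mock reads (12.2%, 4.08 to 26.2). This acceptor and the nearest donor, at 133941487, can bound 1 exon between the main donor and the shared acceptor. Reads from the nearest donor therefore need not come from another first exon.

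Pkm makes pyruvate and ATP from phosphoenolpyruvate, and Ldha turns pyruvate into lactate. Pkm had 518 stimulated reads (386 JPM, 354 to 421) against 177 mock reads (154 JPM, 132 to 179), a ratio of 2.50 (2.11 to 2.99), at chr9:59504457-59523374 (plus strand). Intron 1 alone held 473 of the stimulated and 153 of the mock reads, with a ratio of 2.64 (2.20 to 3.19). The other 9 introns of the most-read transcript held 37 and 23 reads, with a ratio of 1.38 (0.796 to 2.43). The call for Pkm thus rests on intron 1: without it the log2 ratio was 0.68, from 45 and 24 reads, and met neither condition. Ldha had 133 stimulated reads (99.2 JPM, 83.0 to 118) against 36 mock reads (31.4 JPM, 22 to 43.4). Its ratio was 3.16 (2.17 to 4.70), at chr7:54101288-54110346 (plus strand). Intron 3 held 88 and 17 reads (4.43, 2.61 to 7.94) and intron 1 held 33 and 12 (2.35, 1.18 to 5.0), both in the same direction.

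The choice between the printed Pkm exons could be read only from their 5′ side. Exon 8 was joined to exon 10 in 17 stimulated and 6 mock reads, and to exon 9 in 2 stimulated reads and 1 mock read. Exon 10 thus took 89.5% (66.9 to 98.7) of the 19 stimulated reads and 85.7% (42.1 to 99.6) of the 7 mock reads. The stimulated interval lies above an even split, whereas the mock interval, from 7 reads, does not. The intervals overlap, so a difference in exon choice was not detectable at this depth. Neither exon had a read across its join to exon 11 in either library. The spliced window from exon 8 to exon 10 also stood in 2 annotated pseudogenes, while that from exon 8 to exon 9 stood in none, and the effect of these copies on the share was not tested. Upstream, 473 of 477 stimulated reads (99.2%) and all 153 mock reads into exon 2 came directly from the main first exon. The other 4 stimulated reads came from a donor at 59510964. In 2 stimulated reads the main first exon was joined to an acceptor at 59510846, and this acceptor and that donor can bound 1 exon.

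**Figure D2:**
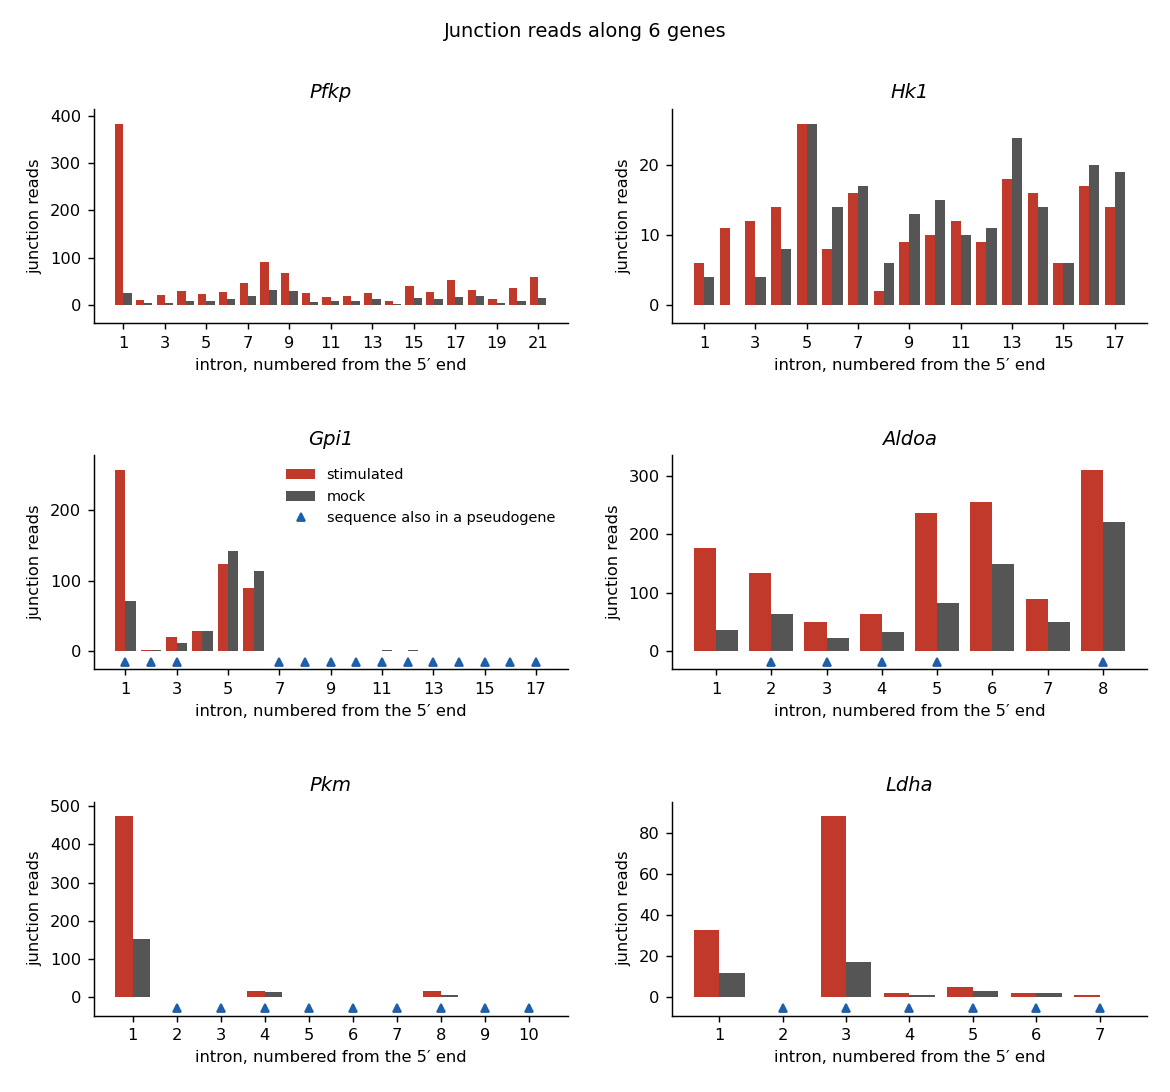
Junction reads (linear axis) at each intron of the most-read coding transcript of 6 genes, stimulated in red and mock in grey. Blue triangles mark introns whose spliced sequence also stands in an annotated pseudogene: Pfkp and Hk1 had reads at every intron, whereas Pkm and Gpi1 had none at several marked introns.

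Reads were spread unevenly along some genes, as the plot of reads along introns shows. Processed pseudogenes are spliced gene copies in the genome, to which a read across a junction can align without a gap. A window of 60 spliced bases was therefore compared with all annotated pseudogene transcripts, allowing 3 mismatches. In the 10 genes, 34 introns had such a copy, and 19 of them (55.9%) had a read in either library. Of 102 introns with no copy 95 (93.1%) had one. Copies were found in 4 genes: 14 of 17 introns in Gpi1, 5 of 8 in Aldoa, 9 of 10 in Pkm and 6 of 7 in Ldha. In Pkm the single intron with no copy was intron 1, with its 473 and 153 reads. In Gpi1 the 3 introns with no copy held 242 stimulated and 284 mock reads, and the 14 with a copy held 278 and 86, most of them at intron 1. Slc2a1, Slc2a3, Hk1, Hk2, Pfkl and Pfkp had no such intron. How far copies lowered the counts, and whether equally in both libraries, was not tested. In Ldha, intron 3, with 88 and 17 reads, had copies in 5 pseudogenes. Without introns that have a copy, Aldoa was also higher, with a log2 ratio of 1.06, and Gpi1 had −0.46. Ldha stayed higher at 1.20 from only 35 and 13 reads, against 1.66 with all introns. Pkm stayed higher at 1.42, from 481 and 154 reads.

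**Figure D3:**
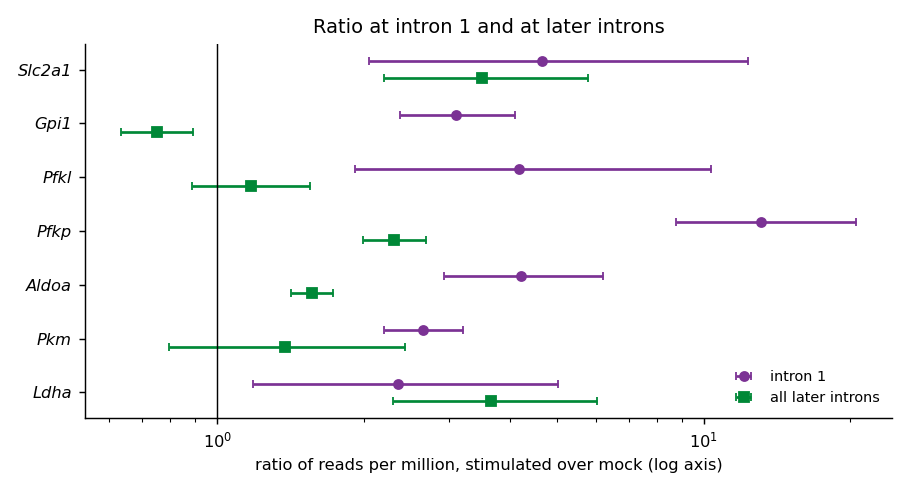
Ratio of JPM, stimulated over mock (log axis), at intron 1 (purple circles) and over all later introns (green squares) of the most-read coding transcript, for the 7 genes with at least 20 reads in each part and reads in both libraries; bars are exact 95% counting intervals. Intron 1 had the larger ratio in 6 of them, Ldha being the exception.

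The first intron could be set against the later ones in 7 of the 10 genes. In the plot of intron 1 against later introns, the ratio at intron 1 was the larger in 6 of 7 genes, with a median log2 difference of 1.43. The intervals of the 2 parts did not overlap for 4 of the 7 (Gpi1, Pfkl, Pfkp and Aldoa), with intron 1 the higher, as for 10.1% of 1519 genes with as many reads in each part. They overlapped for Slc2a1, Pkm and Ldha. Across these 1519 genes, intron 1 had the larger ratio in 63.4%, with a median log2 difference of 0.28 and quartiles of −0.29 and 0.88, so the same direction was the more frequent one in the 2 libraries as a whole. A difference as large as that of Pfkp (2.50) was seen in 1.18% of these genes and as large as that of Gpi1 (2.04) in 3.03%. When intron 1 alone was counted, all 7 genes of the set with at least 20 reads there were higher, against 35.5% of 1648 such genes. Hk1, Hk2 and Slc2a3 had too few reads there. Mean insert sizes were 199.014 bp for the stimulated and 211.79 bp for the mock library, per the labels; the part of insert size in this pattern was not tested.

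The start sites of 2 of the higher genes are printed as RefSeq gives them on GRCm38.p6, each with 250 bases before and 50 after the start. Hk2 is shown for its ratio and Ldha because it alone held the letters CACGTG, the E-box that Myc with its partner Max is known to bind. Capitals mark CACGTG and the shorter ACGTG, the core letters known for hypoxia factors, on either strand; each CACGTG also holds ACGTG.

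Hk2 promoter: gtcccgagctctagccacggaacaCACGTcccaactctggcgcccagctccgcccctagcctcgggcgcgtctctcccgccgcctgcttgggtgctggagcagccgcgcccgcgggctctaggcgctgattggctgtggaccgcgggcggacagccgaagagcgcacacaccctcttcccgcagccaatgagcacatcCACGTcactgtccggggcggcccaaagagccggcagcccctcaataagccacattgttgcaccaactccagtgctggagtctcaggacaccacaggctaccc
Ldha promoter: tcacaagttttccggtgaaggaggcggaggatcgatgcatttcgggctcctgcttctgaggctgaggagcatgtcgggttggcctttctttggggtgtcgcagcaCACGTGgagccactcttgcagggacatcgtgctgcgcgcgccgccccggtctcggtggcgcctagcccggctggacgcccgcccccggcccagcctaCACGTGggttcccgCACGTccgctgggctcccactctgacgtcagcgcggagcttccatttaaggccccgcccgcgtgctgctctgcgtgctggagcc

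The Hk2 window is chr6:82774405-82774704 on the minus strand and the Ldha window chr7:46845554-46845853 on the plus strand, both in GRCm38 and not to be set beside the mm9 positions. In Ldha the 2 CACGTG matches began 145 and 48 bases before the start site, and a further ACGTG match 34 bases before it. Hk2 had ACGTG matches 226 and 52 bases before its start site. A window was available for 9 of the 10 genes. Hk1, Pkm and Ldha had 2 listed windows each and Aldoa had 3, of which 1 per gene is reported. Of the 9 reported windows 1 held CACGTG, against 7.15% of 32851 promoter windows. ACGTG stood in 5 of the 9 (Slc2a1, Hk1, Hk2, Aldoa and Ldha) and in 19.6% of all windows. Both higher and uncalled genes had matches. These are matches of letters, and no binding was measured.

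Other genes of the pathway moved both ways. Of 37 further genes of glucose transport and glycolysis, 7 had at least 20 reads. Of these 7, 3 were higher and 3 lower, against 17.0% higher and 25.1% lower of all measured genes. The median log2 ratio of the 7 was 0.51. Slc16a1, which encodes the lactate transporter MCT1, had 117 stimulated and 10 mock reads, a ratio of 10.01 (5.25 to 21.4). Adpgk, a glucokinase that uses ADP, had 126 and 43 reads (2.51, 1.76 to 3.63), and Pfkfb3, which makes the activator of phosphofructokinase, had 180 and 74 (2.08, 1.58 to 2.77). Besides Pfkm, the lower genes were Bpgm, which makes 2,3-bisphosphoglycerate, with 8 stimulated and 36 mock reads (5.26-fold lower, 2.40 to 13.1), and the muscle enolase Eno3, with 7 and 17 (2.84-fold lower, 1.12 to 8.10). Bsg, a chaperone of lactate transporters, had 354 and 213 reads and met neither condition (1.42, 1.20 to 1.69).

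**Figure D4:**
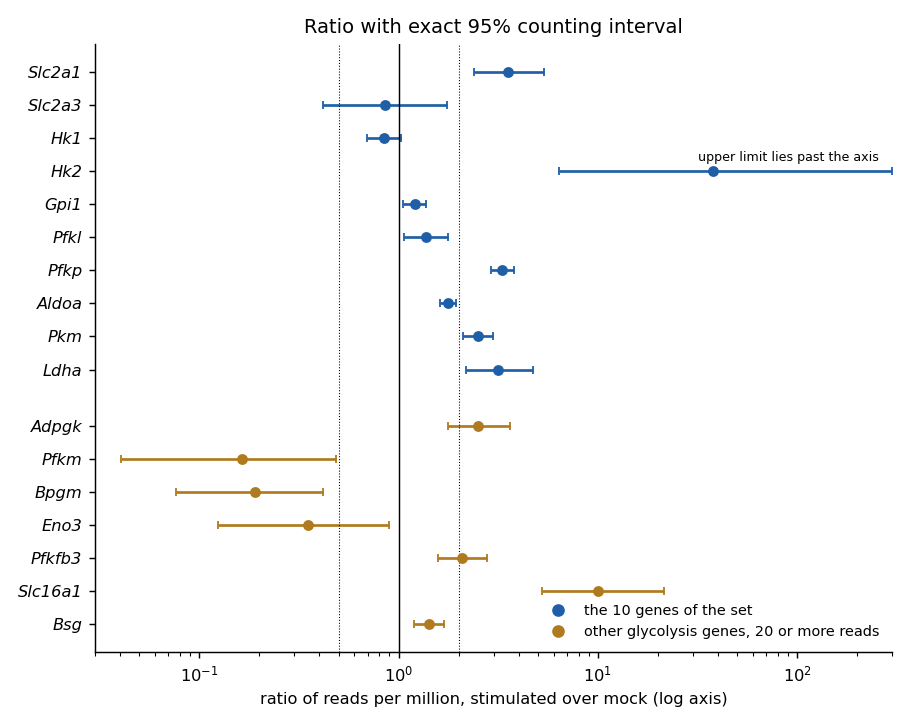
Ratio of JPM, stimulated over mock (log axis), with exact 95% counting intervals, for the 10 genes (blue) and 7 other glycolysis genes with at least 20 reads (ochre). Dotted lines mark ratios of 0.5 and 2, and the upper limit of Hk2 lies past the axis; among the genes outside the set, Slc16a1 lies farthest to the right and Pfkm farthest to the left.

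The middle steps of the pathway could not be followed. No junction could be named for Gapdh, Pgk1 or Pgam1, and pseudogene copies stood for 5 of 6 Gapdh introns (up to 136 pseudogenes for 1 intron), 10 of 10 Pgk1 introns and 3 of 3 Pgam1 introns. Eno1, with copies for 10 of 11 introns, had 1 stimulated and 4 mock reads. Tpi1 had 12 and 5 reads. These genes are left without a direction.

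The pentose phosphate pathway, which branches from glucose 6-phosphate and makes NADPH and ribose, had 7 of its 8 listed genes measured, with a median log2 ratio of 0.10. Rpia, the ribose 5-phosphate isomerase, was higher with 129 stimulated and 38 mock reads (2.90, 2.01 to 4.29), and the other 6 met neither condition. Of all measured genes 17.0% were higher and 25.1% lower. Tkt, transketolase, had 724 and 342 reads (1.81, 1.59 to 2.07), and Pgls had the lowest ratio of the measured genes, 0.798 (0.568 to 1.12). G6pdx, which opens the pathway, had 84 and 67 reads (1.07, 0.769 to 1.5). H6pd, with 0 and 13 reads, was below the minimum.

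Among 14 measured regulators 2 were higher and 1 lower, against 17.0% higher and 25.1% lower of all measured genes. The median log2 ratio of the 14 was 0.16. Myc, which is known to drive glycolytic genes in activated T cells, had 624 stimulated and 23 mock reads (23.2, 15.3 to 36.9). Txnip, which is known to restrain glucose uptake, had 168 stimulated and 1343 mock reads and was 9.35-fold lower (7.96 to 11). Hif1a, the hypoxia factor, had 1044 and 558 reads and met neither condition (1.60, 1.44 to 1.78). Of the RNA-binding proteins known to favour Pkm exon 10, Hnrnpa1 was higher at 217 and 47 reads (3.95, 2.87 to 5.54, from 3 junctions). Ptbp1, with 867 and 461 reads (1.61, 1.44 to 1.81), and Hnrnpa2b1, with 2341 and 1136 (1.76, 1.64 to 1.89), met neither condition, nor did Srsf3 with 27 and 29 (0.796, 0.454 to 1.39). At the entry of pyruvate into mitochondria the pyruvate dehydrogenase kinases act as brakes. Of 8 measured genes there 3 were lower and none higher, against 25.1% lower and 17.0% higher of all measured genes. The median log2 ratio of the 8 was −0.31, against −0.22 for all measured genes with reads in both libraries. Pdk1 had 38 stimulated and 248 mock reads (7.63-fold lower, 5.41 to 11). Pdk2, with 9 and 95 reads, and Pdk3, with 34 and 60, were the other lower genes.

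Both libraries carried the defining markers of T cells. The 9 listed T cell genes held 5521 stimulated reads (4116 JPM) and 5311 mock reads (4629 JPM). Of the 9, 3 were lower and none higher, against 25.1% lower and 17.0% higher of all measured genes. The 3 lower genes were Cd4, with 285 stimulated and 650 mock reads, Cd247, a chain of the receptor complex, with 350 and 955, and Trat1, with 28 and 55. Cd3e, with 455 and 672 reads, met neither condition, nor did Cd5 with 1743 and 766, Lck with 1605 and 1052 or Thy1 with 402 and 265, whose ratios were above 1. Of other cells the enrichment could leave, all 7 genes of the B cell list were read, with 158 stimulated and 194 mock reads; Blk, with 16 and 28, was lower. Of the myeloid list 7 of 8 genes were read, with 84 and 92 reads, 45 and 45 of them in Mpo, which met neither condition. Itgam had none, Lyz2 had 0 and 15, and Cybb, with 19 and 5, was higher. Of the NK cell list 2 of 4 were read, with 38 and 7 reads, 36 and 7 of them in Eomes, which was higher, while Ncr1 and Klrb1c had none. Of the CD8 T cell list Cd8b1 had 5 and 16 reads and was lower, and Cd8a had none, and of the platelet list Itga2b had 8 and 16 and Pf4 and Gp9 none. The erythroid list, with 3 of 6 genes read, held 168 stimulated reads (125 JPM) and 78 mock reads (68.0 JPM), 151 and 71 of them in Hbb-bs, a beta globin, and none in Hba-a1. The part of any of these cells in the glycolysis values was not tested.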

How the data were processed

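Splice junction tables of 2 RNA-seq libraries were used. Each table holds counts of reads that span a junction, deposited by the authors with no normalization. Per the file headers the junctions are TopHat's; the submitters' processing notes also name Cufflinks and the build mm9, and their versions and settings were not stated by any source used here. Alignment that places reads on pseudogenes or drops a junction changes these counts, and reads inside exons are not seen. Depth was 1341197 stimulated and 1147232 mock junction reads, and 3 reads correspond to 2.24 and 2.61 per 1000000 junction reads (JPM).

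The annotation was GENCODE M21 on GRCm38, and no coordinate was converted. A junction took a gene's name when an intron of that gene on the same chromosome and strand had the same length, and when at least 1 further junction stood at the spacing that the gene's introns require, with shifts between builds of up to 10000000 bp. Of 124183 junctions 94389 (76.0%) were named, 1367 matched several genes and were not used, and 28427 had no name. The shift of 99.97% of genes differed by at most 1000 bp from a neighbour's, including all 10 genes of the set. Genes with fewer than 2 read introns cannot be named. Naming and calling were tested on simulated data, whose genes shared 1 shift per chromosome and whose counts held counting error only. The wider spread between real junctions was not covered by that test.

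Counts were summed per gene and scaled by total junction reads, with exact binomial intervals (Python 3.11.15, scipy 1.17.1). With 1 library per group no test was made. The most-read transcript is the protein-coding one whose introns held the most reads. All genes of the set are named, as are other pathway genes with at least 20 reads; of the pentose phosphate list, the called, highest and lowest; of the regulators, Myc, Hif1a, Txnip and those known to act on Pkm exons; and Pdk1. Other genes, including G6pdx, H6pd, Pdk2, Pdk3, single markers and pathway genes under 20 reads, were named after their values were seen. The genes and lists were chosen with earlier results of these data known. Alternatives covered scaling, read minimum, fold, choice of junctions, interval width and naming; 4 of them, on first introns, unnamed junctions and pseudogene copies, were added after seeing the data.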

Additional observations from a re-analysis of the deposited data

Results flagged for a closer look

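Junctions inside Pfkp and Pkm that took no gene name had more reads in the stimulated library than in the mock library, with an interval that excluded 1. A name needed at least 1 further junction at the right spacing, so an unnamed junction need not lie outside the annotation. In Pfkp 9 such junctions held 10 stimulated reads and 1 mock read, a ratio of 8.55 (1.22 to 371). In Pkm 3 such junctions held 12 stimulated reads and no mock read, with a lower limit of 2.38 for the ratio. Both genes were themselves higher in the stimulated library. Over the 10 genes 23 unnamed junctions held 41 stimulated and 23 mock reads. Some of these lay on the strand opposite the gene. They included both Gpi1 junctions (11 and 15 reads), 1 of the 9 in Pfkp (1 and 0 reads) and some in Slc2a1, Hk1 and Pfkl.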

How the results depend on the processing

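Over 18 other settings, between 4 and 7 of the 10 genes were higher and none was lower, except that with a fold of 4 only 1 (Hk2) was higher. Slc2a1, Pfkp and Ldha were called in 17 settings each, Pkm in 15 and Hk2 in 13. Besides the fold of 4, Pkm was not called without its most-read junction, which is intron 1. Hk2 was not called at a minimum of 50 reads, from its most-read junction or from junctions read in both libraries (5 and 1 reads), and had no value in 2 settings. Aldoa was called in 6 settings, among them the trimmed mean of M values (log2 ratio 1.07), and its ratio ran down to 0.26 in its most-read junction. Gpi1 ran from −0.46 to 1.63 with the junctions counted. Hk1 and Slc2a3 were called in none, with log2 ratios from −0.34 to 0.36 and from −1.23 to 0.26. The trimmed mean shifted every gene by 0.24 on the log2 scale, which gave Slc2a3 0.016. Over all genes, higher calls were 40.3% of all calls, and 52.5% (1541 higher, 1397 lower) under the trimmed mean. Of 7130 genes, a fold of 4 gave 480 higher and 628 lower, against 1212 and 1793 (17.0% and 25.1%) in the main setting. First introns alone covered 1648 genes and gave 585 higher and 249 lower (35.5% and 15.1%). The share of Pkm exon 10 could not be taken from its 3′ side, which had no reads, so the 5′ side alone gave the same values. No paired analysis was possible because each group is 1 library. Depth limits Slc2a3, Hk2 in the mock library and the Pkm exon shares most.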

Other observations

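Several further genes of the pathway had no named junction. Of the 37 further glycolysis genes, 16 have introns and no named junction, among them the transporters Slc2a2 and Slc2a4 and the lactate exporter Slc16a3. The 16 also include Gapdh, Pgk1 and Pgam1, most of whose introns have pseudogene copies, so a missing junction gives them no level. For 14 of these 16 no junction of a fitting length was found within 1000 bp of the place that neighbouring genes give. Pklr had 1 stimulated and 0 mock reads at such a place, and Slc16a3 had 0 and 1.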
